A study of Mus musculus with 45 samples.

Results

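Long genes of the synapse and of axon guidance were followed in mouse embryonic stem cells (ESCs) as RNA polymerase II (RNAPII) moved into them after a transcription block. The set holds 57 genes chosen by name, with earlier results of these data known, among 11818 genes with a transcript of at least 20 kb. Each gene is represented by its longest transcript. Their transcripts had a median length of 451.5 kb, from 60.6 kb in Shank3 to 2244 kb in Cntnap2, against a median of 47.0 kb over all 11818 genes. All cells were ESCs grown in 2i medium, held for 4 h in DRB, a reversible inhibitor of the kinase that releases RNAPII into elongation, and harvested 5, 15 or 30 min after DRB was washed out. New RNA was labelled with 4-thiouridine (4sU) before each harvest and sequenced (4sU-DRB-seq). WT/WT cells carried the wild-type Polr2a gene, which encodes the largest subunit of RNAPII. WT/slow cells (Polr2a[wt/R749H]) carried the R749H mutation on 1 allele and slow/slow cells (Polr2a[R749H/R749H]) on both alleles, and the question was how the mutation affects the distance that RNAPII covers. There were 3 biological replicates per genotype and time, 27 samples in all. The cells are undifferentiated stem cells, so none of the values comes from neurons.

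Neurons recognise each other through adhesion proteins on facing membranes, pass signals through receptors and channels held by scaffold proteins, and find their targets through secreted or membrane-bound guidance ligands and their receptors. Genes for these proteins are known for very long introns, so RNAPII needs a long time to cross them. A polymerase that elongates slowly reaches the far end of such a gene later than that of a short gene.

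Each value is a boundary, the distance from the transcript start to the end of the wave of new RNA, in steps of 100 bases. It says how far RNAPII had moved and not how much RNA was made, and without read numbers the precision of each value rests on the 3 replicates. Boundaries of all transcripts ran from 0.2 to 59.3 kb, so the wave could be followed only into the first part of these genes. A single value, 2.5 kb, made up 53.3% of all boundaries. The sources used here do not say what it stands for, and it is counted apart below. Because the values are no levels, cell type markers could be judged only by whether a boundary was called. Of 15 ESC markers 4 had one in all 27 samples (Esrrb, Tfcp2l1, Dnmt3b and Tet1), while Pou5f1 and Sox2, both far shorter than 20 kb, had none. Of 12 neural markers 3 had one in all 27 samples (Rbfox3, Elavl4 and Stmn2) and 3 in none, so a called boundary did not separate the 2 lists.

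Nearly every gene of the set had a boundary. Per sample, 51 to 57 of the 57 genes were called (97.9% ± 2.30, SD over 27 samples), against 89.1% ± 2.39 of the 4617 other genes of at least 60 kb, 93.6% ± 4.23 of 84 other synaptic and guidance genes from a separate list, and 81.4% ± 2.68 of all 11818 genes. A boundary in every one of the 27 samples was found for 46 of 57 genes (80.7%), against 69.3% of the 4674 genes of at least 60 kb. Sema3a, which encodes a secreted repulsive ligand, was called in 15 samples and in none of the 9 WT/slow samples. Cntn1, a contactin of the axon surface, was called in 20 samples, and Adcy8, a calcium-stimulated adenylyl cyclase, in 22. The remaining genes were called in at least 25 samples.

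The boundaries of these genes lay within their opening stretch. No boundary of any transcript exceeded 59.3 kb, so for most of these long genes this placement is set by the range of the values. Over groups with at least 2 boundaries other than 2.5 kb, the mean front at 5 min had passed a median of 2.40% of the transcript, and at 15 min 3.79%. The highest share was 40.3%, in Sema6a in WT/WT cells at 15 min. The first intron was at least 20 kb long in 46 of 57 genes, with a median of 101.9 kb, and 84 of 105 group means at 5 min and 98 of 126 at 15 min lay inside intron 1. At 15 min 1 group mean lay in an exon, and at 5 min 0 did. The farthest boundary of any of the 57 genes was 56.3 kb, in Ctnnd2 in WT/slow cells at 15 min.

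**Figure D1:**
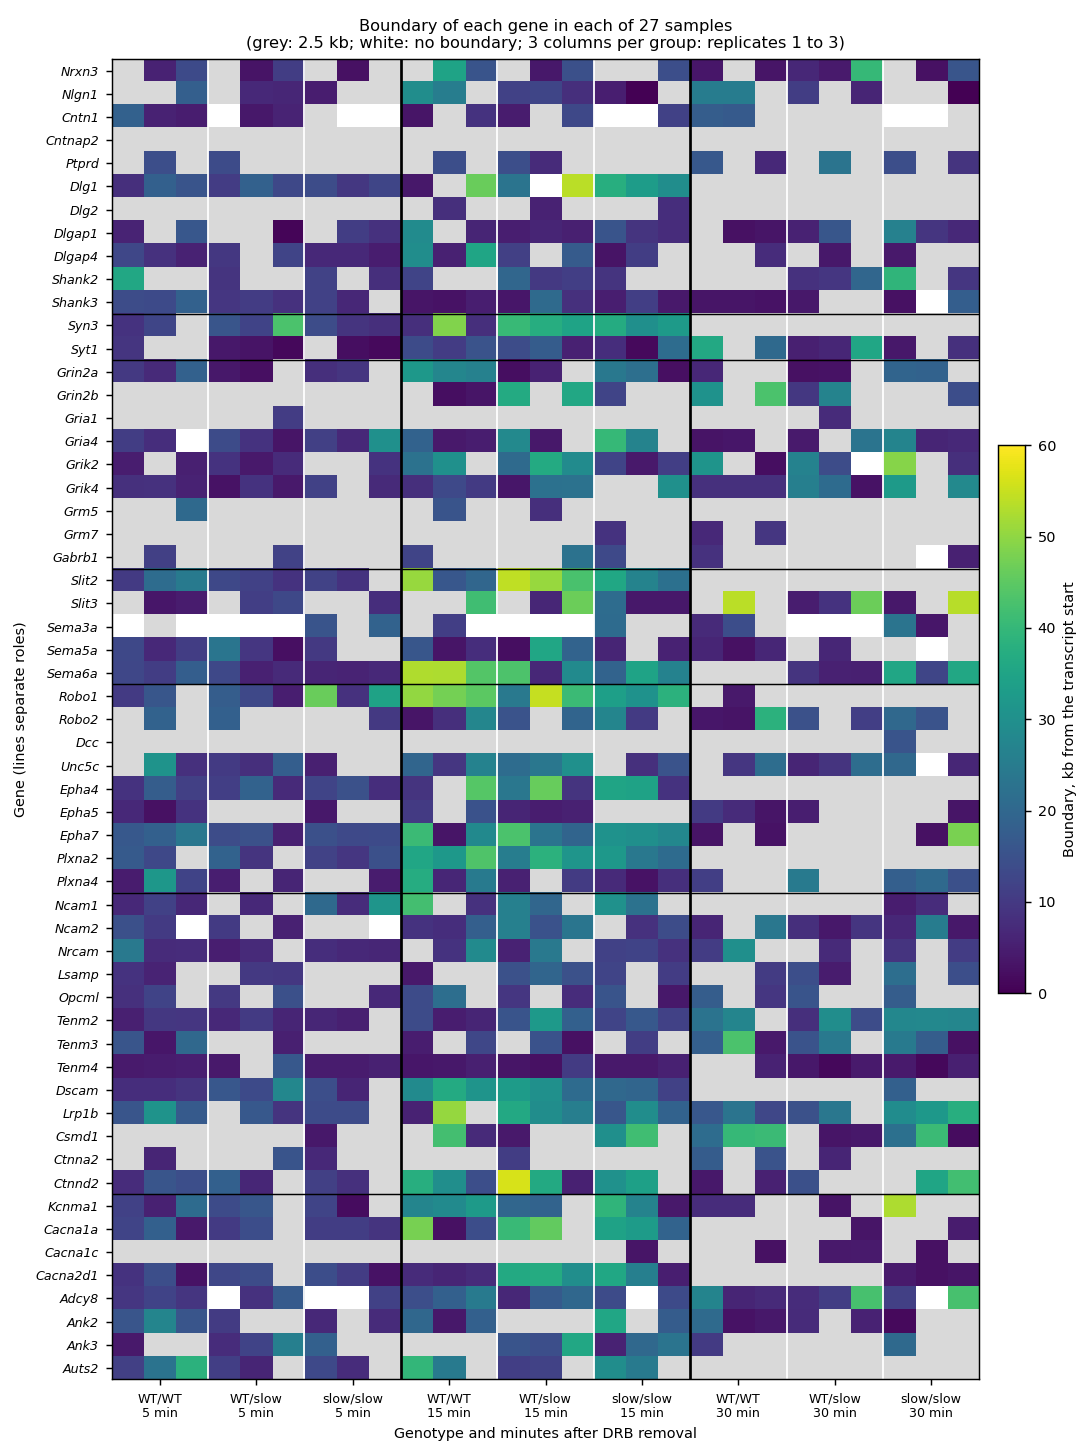
Boundary of each of the 57 genes (rows, ordered by role) in each of 27 samples (columns, 3 replicates per genotype and time), in kb from the transcript start on a colour scale from 0 to 60 kb, with boundaries at 2.5 kb in grey and no boundary in white. Cntnap2 was grey in all 27 samples, while the longest distance was found at 15 min, and genes such as Slit2, Plxna2 and Dlg1 that had moved at 15 min were grey in all 9 samples at 30 min.

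The genes fell along a range between 2 extremes. At 2.5 kb in at least 20 of 27 samples were 8 genes (14.0%, against 5.09% of genes of at least 60 kb): Cntnap2, a neurexin-family protein of axons (27 samples), Dcc, the netrin receptor (26), Gria1, an AMPA receptor subunit (25), Dlg2, a postsynaptic scaffold (24), the metabotropic glutamate receptors Grm5 and Grm7 (24 each), the L-type calcium channel gene Cacna1c (22) and the catenin gene Ctnna2 (20). Cntnap2 was 1 of 11 genes of at least 60 kb that never left this value. At the other extreme, 18 genes had another value in at least 20 samples, led by the teneurin gene Tenm2 (25), the semaphorin gene Sema6a and the teneurin gene Tenm4 (24 each). Adcy8 was the only gene of the 57 that was never at 2.5 kb. The number of boundaries other than 2.5 kb had a Spearman's rho of -0.29 with transcript length and of 0.32 with the number of CG dinucleotides in the 300 bases around the start (57 genes, a description over genes that share all libraries).

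The start regions of 4 genes from the 2 extremes of this range are printed here. They are those whose boundary was past 20 kb, or at 2.5 kb, in all 9 samples at 15 min, leaving out Dcc. Plxna2 (chr1:194619575-194619874) and Robo1 (chr16:72662899-72663198) were past 20 kb, and Cntnap2 (chr6:45059811-45060110) and Gria1 (chr11:57011560-57011859) were at 2.5 kb. Each run is the plus strand of GRCm38.p6 from 250 bases before to 49 after the annotated start, 5′ to 3′, and capitals mark CG dinucleotides.
Plxna2: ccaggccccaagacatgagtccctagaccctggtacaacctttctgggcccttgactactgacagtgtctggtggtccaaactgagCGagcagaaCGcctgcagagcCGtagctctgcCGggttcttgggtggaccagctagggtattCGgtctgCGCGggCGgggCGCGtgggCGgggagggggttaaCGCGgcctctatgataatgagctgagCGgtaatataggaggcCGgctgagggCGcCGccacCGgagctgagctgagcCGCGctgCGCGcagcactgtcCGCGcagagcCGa
Robo1: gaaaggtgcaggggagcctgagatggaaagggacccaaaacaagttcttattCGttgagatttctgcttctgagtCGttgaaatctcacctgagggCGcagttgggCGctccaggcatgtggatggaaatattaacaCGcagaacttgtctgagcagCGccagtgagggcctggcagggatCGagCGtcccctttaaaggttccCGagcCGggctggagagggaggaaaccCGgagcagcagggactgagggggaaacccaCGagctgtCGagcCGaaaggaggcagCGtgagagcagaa
Cntnap2: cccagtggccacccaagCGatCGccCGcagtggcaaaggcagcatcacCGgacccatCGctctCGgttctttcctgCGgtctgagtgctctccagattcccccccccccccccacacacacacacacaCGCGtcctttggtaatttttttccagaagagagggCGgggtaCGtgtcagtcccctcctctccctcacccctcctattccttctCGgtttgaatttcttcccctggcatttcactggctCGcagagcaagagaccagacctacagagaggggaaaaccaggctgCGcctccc
Gria1: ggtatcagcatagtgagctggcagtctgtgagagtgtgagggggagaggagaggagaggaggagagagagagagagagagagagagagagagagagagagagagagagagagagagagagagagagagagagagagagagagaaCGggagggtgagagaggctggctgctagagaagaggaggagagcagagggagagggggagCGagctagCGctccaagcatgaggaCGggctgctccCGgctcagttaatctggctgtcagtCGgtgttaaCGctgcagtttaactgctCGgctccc
Plxna2 held 25 CG dinucleotides in these 300 bases, Robo1 15, Cntnap2 14 and Gria1 8. Robo1 and Cntnap2 differed by a single CG, and their boundaries at 15 min were past 20 kb and at 2.5 kb. Whether the number of CG dinucleotides bears on the boundary was not tested. The median was 27 in the 18 genes that were mostly at other values, 14 in the 8 genes mostly at 2.5 kb and 17 over the 57 genes. It was 18 over the 4674 genes of at least 60 kb and 15 over all 11818 genes. The box GGGCGG, searched on both strands, was found in 33 of 57 windows (57.9%), in 54.6% of those of genes of at least 60 kb and in 50.0% of all windows of this length. It was present in Plxna2 and Cntnap2. TATAAA, searched on both strands, was found in 3 of 57 windows (5.26%), in 8.15% of those of genes of at least 60 kb and in 9.16% of all windows. It was in none of the 4 printed here.

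The share of boundaries at 2.5 kb at 5 min was higher in this set than among the other genes of at least 60 kb in 9 of 9 samples. In WT/WT cells it was 30.4%, 28.1% and 37.0% in replicates 1 to 3 (31.8% ± 4.66, SD, n = 3). In WT/slow cells it was 37.0%, 41.1% and 39.3% (39.1% ± 2.02), and in slow/slow cells 39.3%, 52.7% and 52.7% (48.2% ± 7.76). The replicates of slow/slow cells thus lay above those of WT/WT cells without overlap. The other 4617 genes of at least 60 kb gave 20.5% ± 1.07, 23.0% ± 2.10 and 21.8% ± 3.09 in the 3 genotypes. The pattern was not particular to these 57 genes. The 84 other synaptic and guidance genes gave 26.8% ± 1.20, 30.7% ± 11.1 and 34.9% ± 4.46, above the other genes of at least 60 kb in 8 of 9 samples and below the 57 genes in 8 of 9, with slow/slow replicates again above those of WT/WT cells. At 15 min the set was higher in 5 of 9 samples, with 30.6% ± 2.21 and 33.7% ± 10.8 in WT/WT cells, 26.9% ± 5.36 and 28.3% ± 4.26 in WT/slow cells, and 32.7% ± 6.98 and 20.8% ± 1.05 in slow/slow cells. At 30 min the order turned, and the set had the lower share in 9 of 9 samples, at 53.2% ± 9.66, 56.9% ± 8.94 and 50.4% ± 11.1 against 66.05% ± 5.83, 69.6% ± 3.72 and 66.98% ± 3.97. These shares are a description with no test. The sets also differ in transcript length, with medians of 451.5 kb for the 57 genes, 207.4 kb for the 84 genes and 110.0 kb for the other genes of at least 60 kb. The part of length in these shares was not tested and cannot be told apart here from membership in the set.

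**Figure D2:**
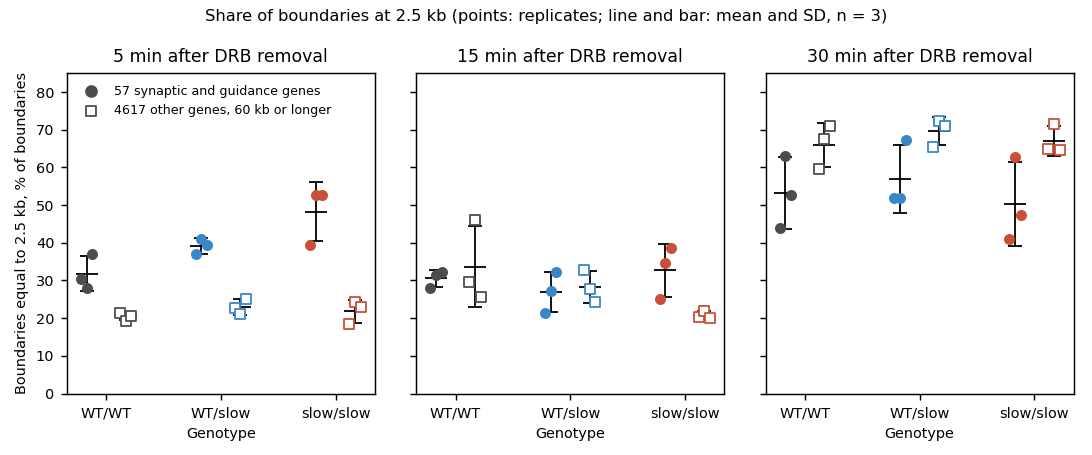
Share of called boundaries equal to 2.5 kb, in % (vertical axis), by genotype and time, for the 57 genes (filled circles) and 4617 other genes of at least 60 kb (open squares), with the mean and SD of 3 replicates. At 5 min the circles had means of 31.8% for WT/WT, 39.1% for WT/slow and 48.2% for slow/slow cells and the squares between 20.5% and 23.0%, while at 30 min every circle lay below the square of its own sample.

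Guidance ligands and their receptors held several of the far fronts, as did other roles, with Ctnnd2 at up to 56.3 kb and Dlg1 at up to 53.8 kb. The 5 ligands were at 2.5 kb in 22.5% of boundaries at 5 min and 17.1% at 15 min, and the 9 guidance receptors in 35.8% and 22.2%. The other genes of at least 60 kb had genotype means from 20.5% to 23.0% at 5 min and from 20.8% to 33.7% at 15 min. In the 2 presynaptic vesicle genes the shares were 22.2% and 0%. Slit2 encodes a secreted repellent that binds Robo receptors. Its boundary in WT/WT cells was 10.1, 21.3 and 24.7 kb at 5 min and 50.7, 16.4 and 19.7 kb at 15 min. In WT/slow cells it was 13.1, 11.7 and 8.7 kb and then 54.3, 50.7 and 42.7 kb, and in slow/slow cells 11.9, 8.8 and 2.5 kb and then 35.8, 26.9 and 22.1 kb. All 3 WT/slow replicates at 15 min lay above all 3 slow/slow replicates, while WT/WT cells spanned both.

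The front of Robo1, a Slit receptor, lay within its first intron of 77.9 kb. Its boundary in WT/WT cells was 10.2, 16.0 and 2.5 kb at 5 min and 50.2, 47.5 and 44.9 kb at 15 min, which places the mean at chr16:72710682 (GRCm38). The WT/slow values were 17.7, 13.1 and 5.1 kb and then 24.2, 54.7 and 41.0 kb. In slow/slow cells it was 46.2, 8.5 and 34.6 kb and then 33.8, 30.5 and 38.5 kb. The slow/slow replicates at 5 min were thus far apart, and at 15 min all 3 lay below those of WT/WT cells. Plxna2, a plexin that binds semaphorins, was the single gene of the set whose front lay farther at 15 than at 5 min without overlap in all 3 genotypes. It went from 17, 13.1 and 2.5 kb to 35.6, 32.1 and 43.5 kb in WT/WT cells, from 18.8, 9.0 and 2.5 kb to 25.4, 38.6 and 31.2 kb in WT/slow cells, and from 11.8, 9.4 and 14.7 kb to 31.9, 24.1 and 20.9 kb in slow/slow cells. Without overlap here and below leaves out boundaries at 2.5 kb, and with 2 or 3 values on each side it is a weak criterion.

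Sema6a encodes a transmembrane semaphorin, a ligand of plexins. In WT/WT cells it went from 12.8, 10.9 and 17.9 kb at 5 min to 52.9, 52.7 and 43.9 kb at 15 min. WT/slow cells went from 12.9, 5.4 and 7.2 kb to 43.3, 6.6 and 28.8 kb, and slow/slow cells from 6.2, 6.0 and 6.9 kb to 19.0, 34.9 and 26.6 kb. Both groups with the mutation lay below WT/WT cells at 15 min. Epha7, an ephrin receptor, was at 16.5, 18.3 and 23.8 kb in WT/WT cells at 5 min, at 13.9, 14.9 and 5.3 kb in WT/slow cells and at 14.7, 13.3 and 13.4 kb in slow/slow cells. At 15 min it was at 40.8, 3.4 and 28.5 kb, at 43.1, 23.0 and 19.3 kb and at 30.7, 29.9 and 27.7 kb. The replicates of slow/slow cells lay close together at both times, while those of WT/WT cells were far apart at 15 min. Epha4, a related receptor, was at 8.8, 17.7 and 11.3 kb in WT/WT cells at 5 min and at 9.0, 2.5 and 44.2 kb at 15 min. It was at 12.2, 14.9 and 7.9 kb and then at 35.0, 34.6 and 8.9 kb in slow/slow cells, and at 11.1, 18.8 and 7.2 kb and then at 23.7, 46.1 and 9.1 kb in WT/slow cells.

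Among the 13 genes of neural cell adhesion, Dscam is a homophilic adhesion protein of the immunoglobulin family. WT/WT cells went from 7.8, 7.8 and 9.0 kb at 5 min to 28.6, 36.7 and 31.1 kb at 15 min. WT/slow cells went from 16.2, 13.5 and 27.8 kb to 32.9, 30.1 and 21 kb, and slow/slow cells from 14.3, 6.2 and 2.5 kb to 20.3, 19.6 and 11.7 kb. All slow/slow replicates at 15 min lay below every replicate of both other genotypes. The teneurins, transmembrane proteins that bind partners across the synapse, differed among themselves. Tenm2 was at 5.2, 9.8 and 9.4 kb in WT/WT cells at 5 min and at 13.7, 4.8 and 6.1 kb at 15 min. It was at 6.8, 10.1 and 6.1 kb and then at 15.7, 32.5 and 18.4 kb in WT/slow cells, and at 6.4, 5.2 and 2.5 kb and then at 12.3, 16.5 and 11.6 kb in slow/slow cells. Tenm4 showed little movement at any time: in slow/slow cells it was at 4.5, 4.5 and 5.4 kb at 5 min, at 4.1, 4.1 and 5.5 kb at 15 min and at 4.4, 1.2 and 5.3 kb at 30 min. In WT/WT cells it was at 4.4, 4.6 and 5.1 kb and then at 3.6, 3.8 and 5.3 kb, and in WT/slow cells at 4.2, 2.5 and 16.6 kb and then at 3.5, 2.6 and 10.4 kb.

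Nrcam, an adhesion protein of the L1 family, was at 24.3, 7.3 and 7.6 kb in WT/WT cells at 5 min, at 5.0, 7.1 and 2.5 kb in WT/slow cells and at 7.9, 7.0 and 6.5 kb in slow/slow cells. At 15 min it was at 2.5, 8.7 and 28.8 kb, at 5.8, 24.3 and 2.5 kb and at 11.7, 12.1 and 8.6 kb. Ctnnd2, which encodes a catenin of dendrites, was at 7.7, 15.9 and 14.3 kb, at 18.5, 6.5 and 2.5 kb and at 11.4, 8.4 and 2.5 kb at 5 min in the same order of genotypes. At 15 min it was at 37.5, 29.6 and 14.4 kb, at 56.3, 36.4 and 5.5 kb and at 30.4, 34.1 and 2.5 kb. The third replicate was the lowest in all 3 genotypes at 15 min. Lrp1b, a very large receptor of the LDL receptor family, was at 15.8, 30.8 and 17.1 kb, at 2.5, 16.5 and 9.0 kb and at 13.7, 13.7 and 2.5 kb at 5 min, and at 5.8, 50.5 and 2.5 kb, at 36.2, 29.3 and 25.6 kb and at 16.1, 29.4 and 18.9 kb at 15 min. The other genes of this role ranged from Ctnna2, with 7 boundaries other than 2.5 kb in 27 samples, to Ncam2, with 20.

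The 11 synaptic adhesion and scaffold genes were at 2.5 kb in 47.9% of boundaries at 5 min and 38.5% at 15 min. Nlgn1 encodes neuroligin, the postsynaptic partner of neurexins. At 15 min it was at 29.4, 25.5 and 2.5 kb in WT/WT cells, at 11.5, 12.6 and 8.2 kb in WT/slow cells and at 5.1, 0.2 and 2.5 kb in slow/slow cells. Leaving out 2.5 kb, the 3 genotypes did not overlap and fell in the order of the number of mutant alleles, with 2 values each in WT/WT and slow/slow cells. WT/WT replicate 3, at 2.5 kb, lay within the range of the slow/slow values. At 5 min it was at 2.5, 2.5 and 18.2 kb in WT/WT cells, at 2.5, 6.8 and 6.5 kb in WT/slow cells and at 4.8, 2.5 and 2.5 kb in slow/slow cells. Dlg1, a scaffold of the membrane-associated guanylate kinase family, was at 8.0, 18.5 and 15.5 kb in WT/WT cells at 5 min and at 3.8, 2.5 and 46.3 kb at 15 min. In slow/slow cells it was at 13.9, 9.8 and 12.5 kb and then at 37.6, 33.2 and 29.4 kb, and in WT/slow cells at 10.6, 18.7 and 13.0 kb and then at 23.1 and 53.8 kb with no boundary in replicate 2.

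Dlgap4, a partner of that scaffold, was at 12.7, 8.5 and 5.7 kb at 5 min and at 29.5, 5.4 and 35.3 kb at 15 min in WT/WT cells. It was at 9.7, 2.5 and 12.2 kb and then at 11.3, 2.5 and 17.2 kb in WT/slow cells, and at 6.8, 6.9 and 4.9 kb and then at 3.2, 10.8 and 2.5 kb in slow/slow cells. Shank3, a postsynaptic scaffold gene with the shortest transcript of the set, ran the other way in time in WT/WT cells. It was there at 13.9, 13.4 and 18.6 kb at 5 min and at 3.4, 2.9 and 5.1 kb at 15 min, lower in all 3 replicates. In WT/slow cells it was at 9.6, 10.7 and 8.5 kb and then at 3.7, 20.7 and 8.3 kb, and in slow/slow cells at 11.5, 6.6 and 2.5 kb and then at 5.1, 11.2 and 4.1 kb, so that the times overlapped in both mutant genotypes. Of the 2 presynaptic vesicle genes, Syn3, a synapsin, was at 8.0, 48.7 and 8.1 kb in WT/WT cells at 15 min, at 40.4, 37.4 and 34.9 kb in WT/slow cells and at 36.9, 29.8 and 32.8 kb in slow/slow cells. At 5 min it was at 8.7, 12.6 and 2.5 kb, at 15.8, 12 and 43.1 kb and at 13.9, 9.0 and 8.0 kb. WT/WT replicate 2 stood far above the other WT/WT replicates at 15 min. Syt1, the calcium sensor of vesicle release, was at 13.7, 10.6 and 15.4 kb in WT/WT cells at 15 min, at 13.9, 17.5 and 5.5 kb in WT/slow cells and at 7.9, 1.5 and 21.1 kb in slow/slow cells, so that the groups overlapped.

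Neurotransmitter receptors were the role most often at 2.5 kb, in 58.8% of boundaries at 5 min and 49.4% at 15 min, and 3 of the 9 were there in at least 20 samples. The pair of NMDA receptor subunits differed. Grin2b was at 2.5 kb in all 9 samples at 5 min, and at 15 min it was at 2.5, 2.2 and 3.3 kb in WT/WT cells, at 36.6, 2.5 and 36.0 kb in WT/slow cells and at 12.4, 2.5 and 2.5 kb in slow/slow cells. Grin2a was at 9.9, 7.2 and 18.7 kb, at 3.8, 2.4 and 2.5 kb and at 8.1, 9.3 and 2.5 kb at 5 min, with WT/WT cells first, WT/slow cells next and slow/slow cells last. In that order it was at 15 min at 32, 27.5 and 26.4 kb, at 2.3, 5.8 and 2.5 kb and at 24.0, 22 and 2.4 kb, so that WT/slow cells had the lowest mean at both times. Grik2, a kainate receptor subunit, was at 22.6, 30.2 and 2.5 kb in WT/WT cells at 15 min, at 20.8, 36.7 and 28.9 kb in WT/slow cells and at 12.2, 4.2 and 11.2 kb in slow/slow cells. Gria4, an AMPA receptor subunit, was at 18.8, 4.0 and 4.7 kb, at 28.2, 3.9 and 2.5 kb and at 40.3, 26.8 and 2.5 kb at 15 min, the reverse order to Grik2 for WT/WT and slow/slow cells. At 5 min Gria4 was at 10.8 and 7.8 kb in WT/WT cells with no boundary in replicate 3, at 13.7, 8.9 and 3.4 kb in WT/slow cells and at 11.4, 7.0 and 30 kb in slow/slow cells.

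Of the 8 genes of channels, signalling and the membrane skeleton, Cacna2d1, an auxiliary calcium channel subunit, was tight in WT/WT cells at 15 min, at 7.3, 6.3 and 7.3 kb. It was at 36.4, 37.0 and 29.7 kb in WT/slow cells and at 35.7, 25.8 and 5.0 kb in slow/slow cells at that time. At 5 min it was at 8.7, 14.3 and 2.9 kb, at 12.7, 13.9 and 2.5 kb and at 14.2, 10.6 and 3.0 kb. Replicate 3 was the lowest in every genotype at 5 min. Cacna1a, the pore subunit of P/Q-type calcium channels, was at 12.4, 18.5 and 4.1 kb, at 10.3, 14.2 and 2.5 kb and at 11, 11 and 9.1 kb at 5 min. At 15 min it was at 47.8, 2.8 and 14.2 kb, at 40.7, 45.5 and 2.5 kb and at 34.5, 32.9 and 19.2 kb. Kcnma1 encodes a large-conductance potassium channel. Its boundary was 11.6, 5.6 and 20.9 kb, 13.8, 16.1 and 2.5 kb and 12.4, 2.0 and 2.5 kb at 5 min, and 27.2, 28.7 and 32.8 kb, 19.9, 19.0 and 2.5 kb and 39.3, 26.9 and 4.1 kb at 15 min. Auts2, a nuclear regulator of neural development, was at 11.4, 22.9 and 38.6 kb, at 11.2, 6.1 and 2.5 kb and at 13.2, 7.7 and 2.5 kb at 5 min, and at 39.8, 24.7 and 2.5 kb, at 11.2, 11.8 and 2.5 kb and at 29.3, 24.8 and 2.5 kb at 15 min. Replicate 3 of Auts2 was at 2.5 kb in all groups but WT/WT cells at 5 min.

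**Figure D3:**
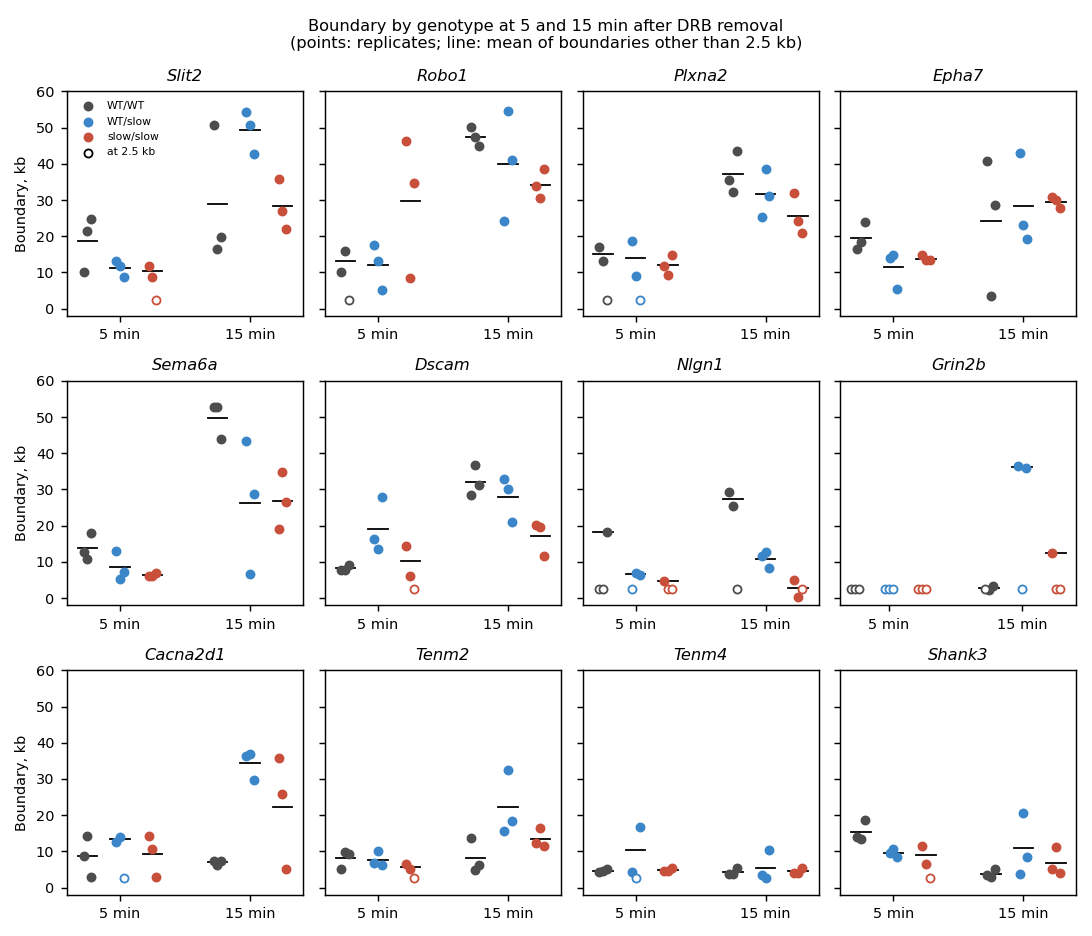
Boundary in kb (vertical axis) of 12 genes at 5 and 15 min in each genotype, each point a replicate, open points at 2.5 kb, lines the mean of the other boundaries. At 15 min Nlgn1 stepped down from a mean of 27.45 kb in WT/WT cells to 10.8 and 2.65 kb, Grin2b stood at 36.3 kb in WT/slow cells against 2.75 kb in WT/WT cells, and Tenm4 stayed near 5 kb in most samples.

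Mean fronts lay farther at 15 than at 5 min in 27 of 37 genes in WT/WT cells, 35 of 37 in WT/slow cells and 24 of 26 in slow/slow cells. These genes had at least 2 boundaries other than 2.5 kb at both times. Over all genes with such values, this held for 3003 of 4540, 3738 of 4905 and 4752 of 5558. Among the other genes of at least 60 kb it held for 2101 of 2623, 2388 of 2762 and 2744 of 2980. In WT/WT cells the 37 genes of the set had a median front of 11.9 kb at 5 min and 21.6 kb at 15 min and a median progress of 7.45 kb. The front lay farther at 15 min without overlap of replicates in 11 of them (29.7%, against a background of 25.4% over all genes with such values). In WT/slow cells the median progress of 37 genes was 9.53 kb, and 16 lay farther without overlap (43.2%, background 36.2%). In slow/slow cells the median progress of 26 genes was 13.3 kb, and 13 lay farther (50.0%, background 54.4%). Among the other genes of at least 60 kb these shares were 34.5%, 44.4% and 60.9%, each above that of the 57 genes. Within this window the median progress amounted to 0.745, 0.953 and 1.33 kb/min in the 3 genotypes. These medians are over partly different genes and do not rank the genotypes. In the 25 genes with values in both slow/slow and WT/WT cells, the median difference in progress was 0.85 kb, and 10 had less progress in slow/slow cells. For WT/slow against WT/WT cells it was 3.15 kb over 32 genes, with 14 lower. Both medians turned in sign when certain single replicates were left out. For the other genes of at least 60 kb the median progress was 10.1, 12.7 and 15.5 kb. The fastest were Slit2 in WT/slow cells (3.81 kb/min), Sema6a in WT/WT cells (3.60 kb/min) and Robo1 in WT/WT cells (3.44 kb/min). Shank3 in WT/WT cells and Opcml, an adhesion protein of the IgLON family, in WT/slow cells lay less far at 15 than at 5 min without overlap, 1 gene of 37 in each (2.70%), against backgrounds of 10.9% and 5.91% over all genes and 4.19% and 2.46% over the other genes of at least 60 kb.

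Fronts of slow/slow and WT/WT cells were then compared gene by gene. At 5 min, 26 of the 57 genes could be tested, with at least 2 boundaries other than 2.5 kb in both genotypes, and the mean front was lower in slow/slow cells in 19 of them. Their median difference was -2.53 kb, close to the -2.77 kb of all 7045 genes tested, of which 74.6% were lower. None of the 26 passed an adjusted p of 0.05 in limma (background 0.0852%), and 2 had an unadjusted p under 0.05 (7.69%, background 9.95%), a share no higher than over all genes. These were Sema6a (-7.50 ± 2.90 kb, SE, adjusted p = 0.458 in limma, n = 3 and 3) and Ank2, an ankyrin of the membrane skeleton (-12.5 ± 4.49 kb, adjusted p = 0.461 in limma). Ank2 was at 15.8, 27.3 and 15.8 kb in WT/WT cells and at 7.0, 2.5 and 7.3 kb in slow/slow cells. Replicates did not overlap in 5 genes, all lower in slow/slow cells (19.2%, background 18.5%), the largest being Ank2, Lrp1b (-7.53 kb) and Sema6a.

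At 15 min, 36 of the 57 genes could be tested and 1 was called. In slow/slow cells Nlgn1 lay 24.8 kb below its WT/WT mean (SE 3.84, 95% confidence interval -34.3 to -15.3 kb, adjusted p = 0.0361 in limma), against 3.3% of all 4031 genes called, 1.31% as lower. The call rests on 2 replicates of each genotype, since the third was at 2.5 kb in both, and one of the 2 slow/slow values, 0.2 kb, is the lowest a boundary takes. With 2.5 kb kept as a value the difference was -16.5 kb with an adjusted p of 0.322 in limma, and without slow/slow replicate 3 the adjusted p was 0.0664. A block for the replicate number gave an adjusted p of 0.143 in limma. Without WT/WT replicate 2, Nlgn1 could not be tested and Syn3 was the gene called in its place.

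The mean front was lower in slow/slow cells in 22 of the 36 genes (61.1%), with a median difference of -3.06 kb, while 50.6% of all genes tested were lower, with a median of -0.10 kb. For the other genes of at least 60 kb the values were 56.5% and -1.90 kb. This median depended on single libraries: it was 0.0167 kb without WT/WT replicate 1 and 0.508 kb without slow/slow replicate 3. Replicates did not overlap in 8 genes that were lower (22.2%, background 19.9%) and in 1 that was higher (2.78%, background 15.5%). For the other genes of at least 60 kb these shares were 23.8% and 10.2%. The 8 lower genes of the set were Nlgn1, the guidance genes Sema6a (-23.0 ± 8.89 kb, SE, adjusted p = 0.231 in limma), Robo1 (-13.3 ± 6.99 kb, adjusted p = 0.400 in limma) and Plxna2 (-11.4 ± 4.86 kb, adjusted p = 0.284 in limma), the adhesion gene Dscam (-14.9 ± 4.27 kb, adjusted p = 0.114 in limma), the receptor genes Grik2 (-17.2 ± 5.54 kb, adjusted p = 0.166 in limma) and Grin2a, and Adcy8. Gria4 was the gene that was higher (24.4 ± 9.18 kb, adjusted p = 0.256 in limma). Of these 9 genes, Nlgn1 alone passed the test over all genes. For Slit2 the difference was -0.67 kb with a 95% confidence interval from -21.5 to 20.2 kb.

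**Figure D4:**
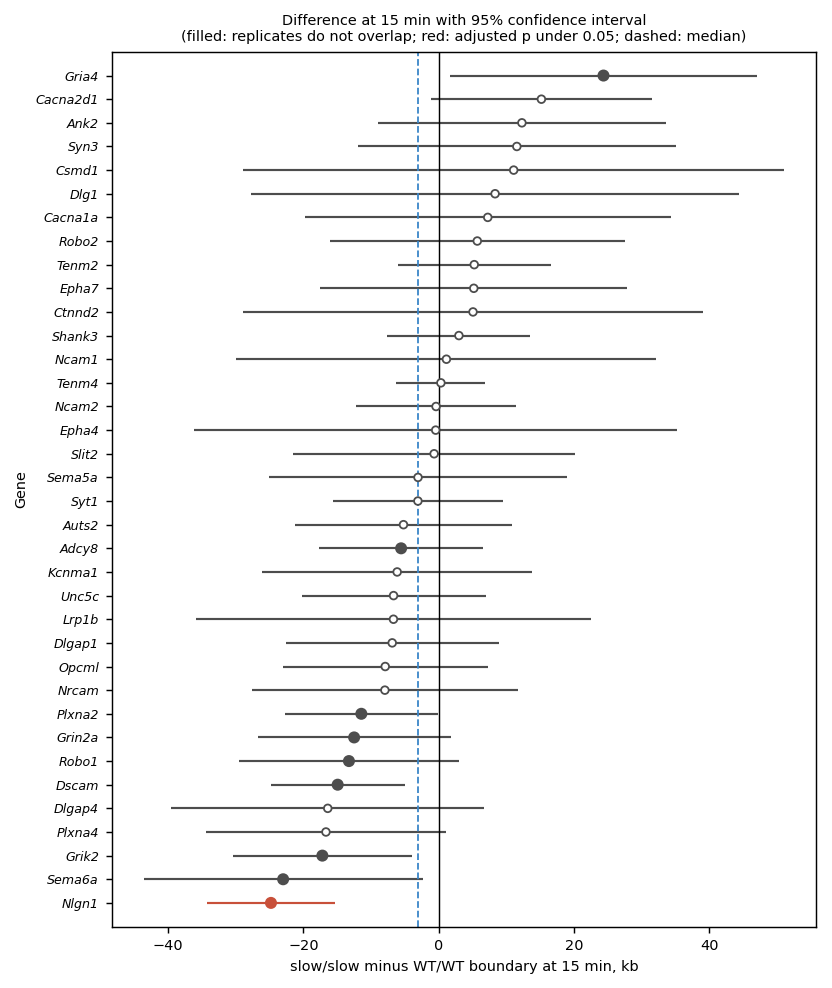
Difference of the mean boundary at 15 min, slow/slow minus WT/WT, in kb (horizontal axis) with its 95% confidence interval from limma, for the 36 genes tested, sorted by size. Nlgn1 (red) passed an adjusted p of 0.05, filled points mark the 9 genes whose replicates did not overlap, and the dashed line is the median of -3.06 kb.

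WT/slow and WT/WT cells were compared next. These differences share their WT/WT samples with those above, and the fits had no replicate block unless stated. At 5 min 34 genes were tested and 0 were called by limma (background 0.0422%), with 2 at an unadjusted p under 0.05 (5.88%, background 6.52%), and 20 of the 34 were lower (58.8%, background 53.7%), with a median difference of -0.55 kb (all genes -0.37 kb). Replicates did not overlap in 6 lower genes (17.6%, background 8.66%), led by Auts2 (-15.7 kb), Grin2a (-8.83 kb) and Epha7 (-8.17 kb), and in 3 higher genes (8.82%, background 5.63%), Dscam (10.97 kb), Slit3 (7.85 kb), a further Robo ligand, and Lsamp (2.40 kb), an IgLON. At 15 min 40 genes were tested and Grin2b was called, higher in WT/slow cells by 33.6 kb (SE 3.57, adjusted p = 0.0473 in limma, background 2.6%, 1.6% as higher). Here too the call rests on 2 replicates of each genotype, the remaining one being at 2.5 kb. With 2.5 kb kept, the difference was 22.4 kb with an adjusted p of 0.521 in limma, and the adjusted p was 0.0585 without WT/WT replicate 1 and 0.0678 without WT/slow replicate 2. Samples of these genotypes with the same replicate number deviated together at 15 min. With the number as a block, Grin2b could not be tested, since no residual degrees of freedom were left, and limma called 0 of 3728 genes, with 479 at an unadjusted p under 0.05, against 99 called without the block. Of the set, 8 of 38 genes had an unadjusted p under 0.05 in limma with the block (21.1%, background 12.8%), against 7 of 40 without it (17.5%, background 13.6%). At 5 min the block gave 0 calls among 31 genes and 1 at an unadjusted p under 0.05 (3.23%, background 6.41%). The next differences were mixed in direction: Cacna2d1 (27.4 ± 7.07 kb, adjusted p = 0.108 in limma) and Tenm2 (14.0 ± 4.85 kb, adjusted p = 0.240 in limma) lay higher in WT/slow cells, while Grin2a (-24.6 kb), Sema6a (-23.6 kb) and Auts2 (-20.8 kb) lay lower, each without overlap. In total 9 genes lay lower without overlap (22.5%, background 11.9%) and 3 higher (7.50%, background 14.7%). Of the 40 genes, 19 were lower in WT/slow cells (47.5%, background 47.7%), and the median difference was 0.68 kb. Cacna2d1 was called in place of Grin2b when only the 2 genotypes entered the fit, and Syn3 when WT/WT replicate 2 was left out.

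Between the 2 mutant genotypes, no gene of the set was called. At 5 min 24 genes were tested with 0 calls by limma (background 0.0284%) and 0 at an unadjusted p under 0.05 (background 6.88%). At 15 min 37 genes were tested with 0 calls (background 0.371%) and 3 at an unadjusted p under 0.05 (8.11%, background 12.4%). With the replicate number as a block, limma called 0 of the 37 genes at 15 min. An unadjusted p under 0.05 was then found for 6 of them (16.2%, against 493 of 4475 over all genes). The share of the set was thus below that of all genes without the block and above it with the block. Slow/slow cells were lower in 16 of 24 genes at 5 min (66.7%, background 71.4%) and in 27 of 37 at 15 min (73.0%, background 52.4%), with median differences of -1.37 kb and -4.40 kb. Over all genes tested the medians were -2.25 kb and -0.43 kb. Among the other genes of at least 60 kb, 68.4% and 58.9% were lower, with medians of -2.13 kb and -2.03 kb. At 15 min Slit2 (-20.97 kb, adjusted p = 0.401 in limma), Grik2 (-19.6 ± 4.94 kb, adjusted p = 0.162 in limma) and Cacna1a (-14.2 kb) were the largest of the lower differences without overlap. In total 9 genes were lower without overlap (24.3%, background 16.8%) and 2 higher (5.41%, background 13.3%), Auts2 (15.6 kb) and Dlgap1 (5.27 kb), a scaffold protein of the Dlgap family. At 5 min Kcnma1 (-7.75 kb) and Dlgap4 (-4.75 kb) were lower without overlap (8.33%, background 20.1%) and Grin2a (5.60 kb) higher (4.17%, background 3.8%).

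Whether progress from 5 to 15 min differed between genotypes was tested as an interaction of genotype and time. Of 25 genes tested for slow/slow against WT/WT cells, 0 were called by limma (background 1.52%) and 3 had an unadjusted p under 0.05 (12%, background 12.9%), about the share over all genes. These were Dscam (-16.98 ± 6.69 kb, adjusted p = 0.271 in limma), Robo1 (-29.9 ± 12.6 kb, adjusted p = 0.320 in limma) and Ank2 (24.8 ± 9.90 kb, adjusted p = 0.329 in limma). Of 32 genes tested for WT/slow against WT/WT cells, 0 were called by limma (background 0.815%) and 5 had an unadjusted p under 0.05 (15.6%, background 9.78%): Slit2, Cacna2d1, Tenm2 and Shank3 with more progress in WT/slow cells and Dscam with less. Slit2 had the largest of these differences, 27.8 ± 10.4 kb (SE, adjusted p = 0.345 in limma), and was called in limma at a difference of 43.0 kb when WT/WT replicate 1 was left out.

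At 30 min many boundaries were at 2.5 kb, and these values are a description. In WT/slow cells, 8 genes of the set were past 20 kb in all 3 replicates at 15 min, and 6 of them were at 2.5 kb in all 3 at 30 min. In slow/slow cells this held for 5 of 6 genes and in WT/WT cells for 3 of 6. Among all genes of at least 60 kb the shares were 58.5%, 62.1% and 47.2%. Genes with 3 boundaries other than 2.5 kb at 15 min, at least 1 of them under 20 kb, were at 2.5 kb in all 3 replicates at 30 min in 4 of 20 in WT/WT cells, 3 of 18 in WT/slow cells and 1 of 17 in slow/slow cells (25.7%, 32.5% and 22.1% among all genes of at least 60 kb). Genes at 2.5 kb in all 3 replicates at 15 min were there again in all 3 at 30 min in 3 of 7 in WT/WT cells, 3 of 6 in WT/slow cells and 4 of 7 in slow/slow cells (65.3%, 64.97% and 59.0% among all genes of at least 60 kb). A boundary at 2.5 kb at 30 min was thus found both after fronts past 20 kb and after boundaries already at 2.5 kb at 15 min. Robo1 was at 2.5, 4.1 and 2.5 kb in WT/WT cells at 30 min and at 2.5 kb in all 6 mutant samples. Sema6a was at 2.5 kb in all 3 WT/WT samples at 30 min but at 9.0, 5.4 and 5.3 kb in WT/slow cells and at 35.4, 12.6 and 35.9 kb in slow/slow cells. Tenm2 in slow/slow cells was at 27.7, 28.1 and 27.6 kb at 30 min, farther than any of its replicates at 15 min. The boundary at 30 min was therefore not read as a distance for the comparisons of genotypes.

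Other genes of the same pathways were counted from a separate list. Of 86 further synaptic and guidance genes, 84 had a transcript of at least 20 kb. In slow/slow against WT/WT cells, 0 of 41 tested at 5 min and 0 of 44 at 15 min were called by limma, with 5 (12.2%, background 9.95%) and 10 (22.7%, background 17.1%) at an unadjusted p under 0.05, and the median differences were -3.55 and -4.65 kb. In WT/slow against WT/WT cells, 2 of 43 were called at 15 min (4.65%, background 2.6%), both lower: Erc2, a scaffold of the presynaptic active zone (-28.2 ± 3.06 kb, adjusted p = 0.00817 in limma), and Unc5a, a netrin receptor (-28.3 ± 4.72 kb, adjusted p = 0.0490 in limma). Erc2 was also higher in slow/slow than in WT/slow cells at 15 min (29.0 ± 3.13 kb, adjusted p = 0.0242 in limma), the single call among 41 genes tested there (2.44%, background 0.371%). With the replicate number as a block neither gene was called: the adjusted p in limma was 0.0503 for Erc2 and 0.191 for Unc5a against WT/WT cells, and 0.226 for Erc2 between the mutant genotypes, where 0 of 4475 genes were called, with 493 at an unadjusted p under 0.05. At 5 min limma called 0 of 52 genes in WT/slow against WT/WT cells and 0 of 42 in slow/slow against WT/slow cells. In each, 2 had an unadjusted p under 0.05 (3.85% and 4.76%, backgrounds 6.52% and 6.88%). With the block, 3 of 48 had an unadjusted p under 0.05 in WT/slow against WT/WT cells at 5 min (6.25%, background 6.41%). At 15 min the block gave 10 of 43 in that comparison, against 9 without it. For slow/slow against WT/slow cells at 15 min it gave 8 of 41, against 5 without it.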

How the data were processed

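4sU-DRB-seq samples were grouped by genotype, time and replicate from their labels; 27 samples were analysed, and cells at 0 min and without DRB were not analysed here. Per the labels and the methods, the authors aligned reads to mm10 (GRCm38) with Bowtie2 2.2.9, binned the new RNA and called the end of the wave in each sample against the average of the 0 min samples. Each deposited file gives 1 distance in bases per transcript; read numbers are not given, so the depth is unknown and the spread between replicates gives the precision. The annotation release is not given in the sources used here. Symbols and exons came from GENCODE M21; 48 of 57 genes had the same start and end there, and promoter windows came from the GRCm38.p6 genome. Genes, roles and lists were chosen with earlier results of these data known. Boundaries at 2.5 kb were set to missing, and group means in kb were compared with limma 3.58.1 (R 4.3.3) over the 3 genotypes of 1 time, with at least 2 boundaries in both groups, two-sided, with Benjamini-Hochberg adjustment over all genes tested and a threshold of 0.05. The progress test used 18 samples. Replicate numbers come from the labels, which do not say what they share. Same-numbered samples deviated together, with every correlation of deviations from the group means over 0.1, in WT/slow against WT/WT cells at 5 min (0.123 to 0.279) and 15 min (0.106 to 0.162) and in slow/slow against WT/slow cells at 15 min (0.102 to 0.136). The main fits had no replicate block in any comparison, so they leave this pairing out. For these comparisons, fits with the replicate number as a block are given beside them. In the remaining comparisons the correlations were 0.0433 to 0.151 at 5 min and 0.0141 to 0.0967 at 15 min. Named genes are those with at least 2 such boundaries in all 6 groups at 5 and 15 min, any called gene, the 3 largest differences without overlap in each direction and the longest and shortest transcripts. The fit was tested on simulated data. Tables were joined with pandas 2.3.3 in Python 3.11.15 and drawn with Matplotlib 3.10.9. Alternatives kept 2.5 kb as a value, asked for all 3 boundaries, used log2 of the boundary, a replicate block, transcripts of at least 60 kb, the lowest transcript identifier, only the 2 groups compared, or left out each replicate in turn.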

Additional observations from a re-analysis of the deposited data

Results flagged for a closer look

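Opcml moved in opposite directions in 2 genotypes between 5 and 15 min. In WT/WT cells its boundary went from 8.4 and 12 kb to 13.6 and 21.7 kb, a difference of 7.45 kb, and in WT/slow cells from 9.9 and 14.6 kb to 9.4 and 7.5 kb, a difference of -3.80 kb, with 1 further replicate at 2.5 kb in each group. The difference between the genotypes was -11.25 kb (SE 7.64) and did not pass the test (adjusted p = 0.704 in limma). That every measured replicate moved one way in WT/WT cells and lay lower at 15 min in WT/slow cells is a description of 2 replicates per group.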

How the results depend on the processing

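Called genes are counted below over all genes, in the order slow/slow minus WT/WT, WT/slow minus WT/WT and slow/slow minus WT/slow. The reported counts were 6, 3 and 2 at 5 min, 133, 99 and 17 at 15 min, and 51 and 26 for progress. With 2.5 kb kept as a value they were 17 and 9 for the comparisons with WT/WT cells at 5 min, 438, 180 and 268 at 15 min and 334 and 60 for progress. With all 3 boundaries asked for, 1 and 1 were called in WT/slow minus WT/WT and slow/slow minus WT/slow at 5 min, 63 and 33 in the comparisons with WT/WT cells at 15 min, and 9 and 5 for progress. On the log2 scale 56 were called in slow/slow minus WT/slow at 15 min and 3 for the progress of WT/slow cells. Among transcripts of at least 60 kb, 10, 39 and 0 were called at 15 min and 2 and 7 for progress. With the lowest transcript identifier, 1 and 6 were called in slow/slow minus WT/slow at 5 and 15 min. With only the 2 groups compared in the fit, 1, 0 and 6 were called at 5 min, and 21 and 3 in WT/slow minus WT/WT and slow/slow minus WT/slow at 15 min.

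In 17 of 18 pairs of same-numbered samples of different genotypes at 1 time, the first correlated best with the second among the 3 replicates of its genotype, a hint from the data and not the design. With the replicate block, 0, 0 and 0 genes were called at 5 min, 1, 0 and 0 at 15 min and 14 for the progress of WT/slow cells, and the difference of Dlgap4 between slow/slow and WT/slow cells at 15 min was 2.43 kb, opposite in sign. Of the called genes among the 57, Nlgn1 was no longer called (adjusted p = 0.143 in limma) and Grin2b could not be tested, and the block changed no other call of the 57 genes.

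Of the 57 genes, 1 was called in each comparison with WT/WT cells at 15 min. Among the alternatives Nlgn1 was called only without WT/WT replicate 3. The count for slow/slow cells was 0 in every setting that keeps all replicates, and Nlgn1 could not be tested with all 3 boundaries, the lowest identifier, or without WT/WT replicate 1 or 2 or slow/slow replicate 1 or 2. The count for WT/slow cells was 0 with 2.5 kb kept, all 3 boundaries, the replicate block or transcripts of at least 60 kb, and 2 with the lowest identifier. Other reversals came with the lowest identifier, a different transcript: Ank2 at 4.68 kb (slow/slow minus WT/WT, 5 min), Kcnma1 at 6.30 kb (WT/slow minus WT/WT, 15 min) and 2.90 kb (slow/slow minus WT/slow, 5 min), and Dlgap4 at 8.25 kb (slow/slow minus WT/slow, 15 min). That setting also gave a boundary in 97.1% and 98.2% of the genes in WT/WT cells at 15 and 30 min and 94.7% in slow/slow cells at 5 min, and 34.9% at 2.5 kb in WT/WT cells at 15 min.

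Leaving out 1 replicate gave 0 to 10, 0 to 6 and 0 to 3 called genes at 5 min, 1 to 135, 18 to 71 and 0 to 3 at 15 min, and 5 to 44 and 1 to 31 for progress. Among the 57 genes it gave 0 to 1 in each comparison with WT/WT cells at 15 min and in the progress of WT/slow cells. Medians over the 57 genes turned in sign to 0.0167 and 0.508 kb (slow/slow minus WT/WT, 15 min, without WT/WT replicate 1 and slow/slow replicate 3), 0.317 kb (WT/slow minus WT/WT, 5 min, without WT/slow replicate 3), -0.88 kb (progress of slow/slow cells, without slow/slow replicate 1), and -1.40 and -2.75 kb (progress of WT/slow cells, without WT/WT replicate 3 and WT/slow replicate 2). When 1 replicate was left out, these medians ranged from -5.10 to 0.508 kb, from -2.60 to 0.317 kb, from -0.88 to 9.75 kb and from -2.75 to 7.56 kb. The other 88 medians kept their direction. The cause was not tested.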
